A study of Mus musculus with 8 samples.

Results

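The cytosolic ribosomal protein genes were described in 8 mRNA libraries of ASZ001, a mouse basal cell carcinoma line. Members were taken by symbol: entries named Rpl or Rps with a number, the stalk genes Rplp0 to Rplp2 and Rpsa, without the Rps6k kinases and without entries marked as pseudogenes (-ps), that had at least 10 counts in at least 2 libraries. The rule matched 89 symbols and kept 87 of the 24883 gene entries. Rpl3l and Rpl10l, which had 0 to 2 counts in any library, were left out. Of the 87 members, 46 encode large-subunit proteins, 31 encode small-subunit proteins, and 10 are copies or relatives that the symbol rule takes in: Rpl7l1, Rpl22l1, Rpl32l, Rpl36al, Rpl37rt, Rpl39l, Rps4l, Rps27l, Rps27rt and Rps19bp1, a protein that binds Rps19 and is no ribosomal protein itself. Fau, which encodes a ribosomal protein fused to a ubiquitin-like protein, does not carry the symbol and was counted with the elongation factors.

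A ribosome has a small subunit, which reads the messenger RNA, and a large subunit, which joins the amino acids, and each needs about the same number of copies of nearly every ribosomal protein. Most of these messenger RNAs begin with a C followed by a run of pyrimidines, the terminal oligopyrimidine or TOP tract, through which the kinase mTORC1 and the RNA-binding protein Larp1 set how well they are translated. Growth signals through the EGF receptor, RAS and ERK are known to raise ribosome production, in part through MYC and RNA polymerase I. Each ribosomal protein gene also has many processed pseudogenes in mammalian genomes, so that its reads can often be placed in more than one location.

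Each of 4 groups had 2 libraries, and all cells received doxycycline (24 h). In 3 groups the doxycycline-inducible vector carried c-FOS, a subunit of the transcription factor AP-1, and the cells then received for 6 h afatinib (5 µM), an inhibitor of the EGF receptor family, UO126 (10 µM), an inhibitor of the ERK-activating kinases MEK1/2, or the vehicle DMSO. The fourth group carried the empty vector, and its label names doxycycline and no vehicle, so the step from empty vector to c-Fos with DMSO differs in the vector, in the DMSO and possibly in the time of harvest, which cannot be told apart. The labels do not say if a pair of libraries stems from different cultures; p-values therefore measure library-to-library spread, which may be technical. The sources used here do not give whether the transfected cells were a clone or a pool. The transgene was checked first: Fos had 22732 and 23573.5 counts with afatinib, 18209 and 18979 with UO126, 21373 and 19720.5 with DMSO, and 937.5 and 1040.5 in empty-vector cells. In CPM (counts scaled by library size), Fos had 813 and 875 CPM with UO126 against 1163 and 1121 CPM with DMSO and was called lower (-0.44 ± 0.08, adjusted p = 0.0015 by edgeR), while with afatinib it had 1107 and 1081 CPM and was not called against DMSO (-0.06 ± 0.08). The part of this Fos difference in the results with UO126 was not tested.

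The libraries held 17858886 to 23075507 counts over entries with a gene symbol. All 10 keratinocyte and basal cell carcinoma markers had at least 10 counts in every library. Summed fibroblast markers ranged from 5.07 to 10.6 CPM and leukocyte markers from 5.51 to 9.35 CPM, with 2 of 7 and 1 of 4 markers at 0 in all libraries. Summed endothelial markers ranged from 54.5 to 71.0 CPM and were highest in empty-vector cells; nearly all of it was Pecam1, with Kdr at 0 in all libraries and Cdh5 at 0.093 CPM or less. In bulk RNA, fewer cells of one type and less RNA per cell cannot be told apart. The precursor of ribosomal RNA, Rn45s, took 1.63% to 4.09% of the counts of a library. All values below are relative to the other messenger RNAs in the same library, and do not show the amount of RNA per cell.

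RefSeq promoter windows (250 bases before to 50 after the annotated start, GRCm38.p6) were found for 66 of the 87 members. The members with a C-led run of at least 8 pyrimidines within 30 bases of the annotated start numbered 35 of 66 (53.0%), against 21.2% of 9888 other tested genes and 20.6% of all 27025 genes with a window. Windows of 5 members are printed because they hold such a run near the annotated start and belong to genes whose levels are described below. The capitals mark the pyrimidine run, on the strand of the gene. Relative to the annotated start the runs begin at -17 (Rpl4), -1 (Rps6), 2 (Rpl13a), -5 (Rps9) and -8 (Rpl14). The run of Rpl4, 13 bases long, ends before the annotated start. Whether the messenger RNAs of these cells begin within the marked runs was not tested.
Rpl4, chr9:64173347-64173406, plus strand: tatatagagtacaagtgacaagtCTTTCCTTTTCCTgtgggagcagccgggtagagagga
Rps6, chr4:86857348-86857407, minus strand: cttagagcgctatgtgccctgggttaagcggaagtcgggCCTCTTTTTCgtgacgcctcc
Rpl13a, chr7:45128726-45128785, minus strand: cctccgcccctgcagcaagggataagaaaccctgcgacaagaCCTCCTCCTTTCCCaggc
Rps9, chr7:3704001-3704060, plus strand: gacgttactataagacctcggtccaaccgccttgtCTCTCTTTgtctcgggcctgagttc
Rpl14, chr9:120571477-120571536, plus strand: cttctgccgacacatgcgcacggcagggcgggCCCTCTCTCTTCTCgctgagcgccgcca

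Other motifs were counted on both strands of the same windows. CCGGAAG, the core bound by ETS-family factors such as GABPA, lay in 26 of 66 member windows (39.4%), against 20.1% of other tested genes and 9.93% of all genes. TGANTCA, the core that AP-1 binds, lay in 2 of 66 (3.03%), Rpl22 and Rpl9, against 6.46% of other tested genes and 8.97% of all genes. AAGATGGC, the YY1 core, lay in 9.09% of member windows, against 5.33% of other tested genes and 3.19% of all genes. TATAAA lay in 12.1% of member windows, above the 8.37% of other tested genes and below the 15.7% of all genes. A match is a description of these letters, not evidence of a bound site, and the motif classes can overlap within a window. An ETS-core window of a member that differed between the inhibitors and the AP-1-core windows of both members are printed with the motif in capitals.
Rps3a1, chr3:86142651-86142697, minus strand: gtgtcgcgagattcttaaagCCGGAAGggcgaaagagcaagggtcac
Rpl22, chr4:152325636-152325682, plus strand: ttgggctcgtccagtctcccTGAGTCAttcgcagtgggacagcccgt
Rpl9, chr5:65391520-65391566, minus strand: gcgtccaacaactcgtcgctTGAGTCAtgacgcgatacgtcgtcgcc

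The members together took 0.803% and 0.756% of all counts with afatinib, 0.826% and 0.848% with UO126, 0.917% and 0.996% with DMSO, and 0.768% and 0.829% in empty-vector cells. Both c-Fos libraries with DMSO lay above the other 6. The mean share was 0.780% ± 0.033 with afatinib, 0.837% ± 0.015 with UO126, 0.957% ± 0.056 with DMSO and 0.798% ± 0.043 in empty-vector cells (SD, n = 2 each), and no exact test over 2 against 2 libraries can pass 0.05.

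Although the subunits need their proteins in like amounts, the deposited counts per gene were far from equal. Levels per length, as CPM per kb of the file's transcript length and averaged over 8 libraries, had a median of 34.2 and spanned Rpl29 (0.868) to Rpl41 (1640), which encodes the shortest ribosomal protein. There were 22 members under 10 CPM per kb and 17 over 200. Other members with high levels were Rpl8 (824) and Rps9 (509), and the 3 members with most counts held 25% of all member counts, the top 10 55.3%. The order hardly differed between groups: the lowest rank correlation between any pair of groups was 0.99 across the 87 members, a description across genes of libraries counted in the same way.

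Members with more shared sequence tended to have lower levels. For 84 members with a GENCODE transcript, the share of their 50-base words that also occur in another annotated gene or pseudogene ranged from 0% (Rpl39l and Rps19bp1 among others) to 95.1% (Rpl35), with a median of 47.4%, and 38 members were at 50% or more. Across these 84 genes, shared words and CPM per kb had a Spearman's rho of -0.42. Rpl5, of whose words 93.8% are shared, had 19.5 CPM per kb. Pseudogene entries held counts of their own: Rplp2-ps1 had 5635 to 6518 counts per library and 9.49 to 11.6 times the level per kb of Rplp2, and Rpl14-ps1 had 4.56 to 5.15 times that of Rpl14. The level of a single member is therefore uncertain, and how reads that match several genes were credited was not tested. Differences between groups were also taken over the 46 members under 50% shared words.

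**Figure D1:**
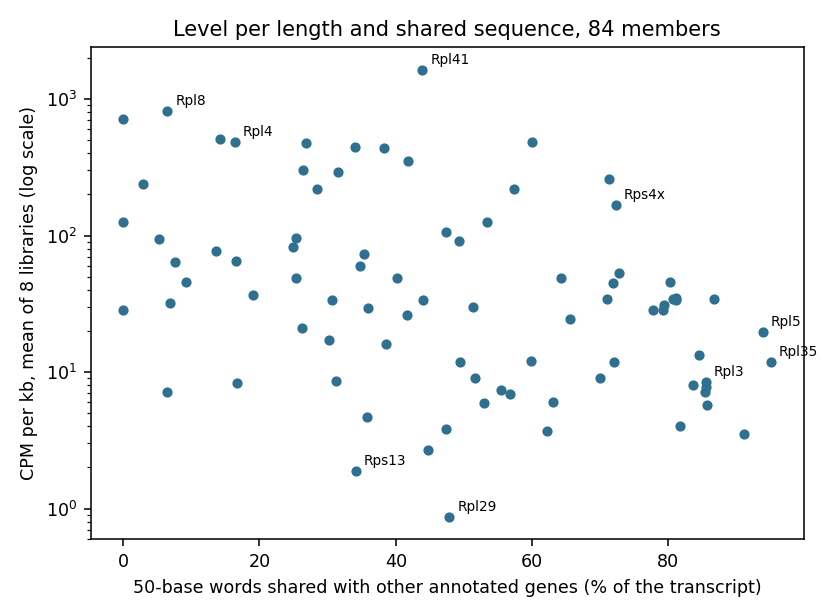
Level per length of 84 ribosomal protein genes (y axis, CPM per kb, mean of 8 libraries, log scale) against the share of 50-base words that each transcript shares with other annotated genes or pseudogenes (x axis, percent). Each point is a gene; Rpl3, Rpl5 and Rpl35, at the right, lie low, and Rpl41 and Rpl8 lie at the top.

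In c-Fos cells with DMSO, compared with empty-vector cells, most ribosomal protein messenger RNAs were a little higher. Of the 87 members, 48 rose and 2 fell at an adjusted p under 0.05, where 21.5% of all 12879 tested genes rose and 20.7% fell. The median member difference was 0.32 on the log2 scale, or 1.25-fold, against -0.01 over all tested genes, and 78 of 87 were above 0. Both subunits took part: 23 of 46 large-subunit genes rose and none was called lower, 18 of 31 small-subunit genes rose and 1 fell, and 7 of the 10 copies and relatives rose and 1 fell. The test was edgeR's quasi-likelihood test on all 8 libraries with Benjamini-Hochberg adjustment over all tested genes; for the large subunit, no gene was lower at an unadjusted p under 0.05 or by DESeq2 either.

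The changes were small: 8 of 87 members rose by at least 1.5-fold, where 7.22% of all tested genes did, a share close to that background. Rpl6, a large-subunit protein, had 82.7 and 72.8 CPM in c-Fos cells with DMSO against 45.9 and 38.7 CPM in empty-vector cells, a log2 difference of 0.88 ± 0.17 (SE, adjusted p = 0.0042 by edgeR). Rps4x, the X-linked gene of small-subunit protein S4, had 193 and 206 CPM against 114 and 116 CPM (0.79 ± 0.08, adjusted p = 2.85e-06 by edgeR). In both genes every c-Fos library lay above every empty-vector library. Rpl6 shares 64.3% of its 50-base words with other annotated sequence and Rps4x 72.2%. Rps28, of the small subunit, had 3.05 and 4.09 CPM in c-Fos cells with DMSO against 1.77 and 2.26 CPM in empty-vector cells (0.83 ± 0.23, adjusted p = 0.010 by edgeR). Rpl11, which with Rpl5 and 5S ribosomal RNA binds MDM2 when ribosome assembly fails, had 2.88 and 2.95 CPM against 1.95 and 1.53 CPM (0.73 ± 0.22, adjusted p = 0.017 by edgeR). Rpl36a (0.69 ± 0.20) and Rpl37 (0.65 ± 0.17) completed the 6 largest rises, again with no overlap between the groups. Rps28, Rpl11, Rpl36a and Rpl37 are scarce entries, and each lost its call in 2 or 4 of 17 or 18 other fits, whereas Rpl6 and Rps4x kept theirs in all 18.

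The 50 members at 20 CPM or more ranged from -0.43 to 0.88 on the log2 scale, and the 37 under 20 CPM from -0.67 to 0.83. Rpl8, near the peptidyl transferase centre, had 807 and 846 CPM in c-Fos cells with DMSO against 625 and 678 CPM in empty-vector cells (0.34 ± 0.06). Rpl4 had 747 and 812 CPM against 602 and 631 CPM (0.34 ± 0.06). Both rose, by edgeR, and in each the groups were apart. Rplp1 of the stalk that recruits elongation factors rose (0.43 ± 0.07, adjusted p = 0.00031 by edgeR), as did Rplp2 (0.43 ± 0.12), while the stalk base Rplp0 differed by 0.22 ± 0.09 (adjusted p = 0.079 by edgeR). Rps19, mutated in Diamond-Blackfan anaemia, rose by 0.43 ± 0.07, Rpsa, also known as the laminin receptor precursor, by 0.42 ± 0.10 and Rpl13a by 0.24 ± 0.07. Rps6, the substrate of S6 kinases, had 20.3 and 27.1 CPM against 19.2 and 16.7 CPM and missed the threshold (0.40 ± 0.15, adjusted p = 0.056 by edgeR). Rps27a, which is made as a fusion with ubiquitin, differed by 0.08 ± 0.12, Rpl5 by 0.15 ± 0.09 and Rpl10 by 0.10 ± 0.13, none of them called. Of both members with an AP-1 core in their window, Rpl22 had 227 and 249 CPM in c-Fos cells with DMSO against 202 and 215 CPM in empty-vector cells (0.19 ± 0.07, adjusted p = 0.030 by edgeR, lost in 4 of 18 other fits). Rpl9 had 8.57 and 4.69 CPM against 5.63 and 7.38 CPM, and its groups overlapped.

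The 2 that fell were Rps27 and Rps4l. Rps27, a small-subunit zinc-finger protein, had 3.05 and 3.15 CPM in c-Fos cells with DMSO against 4.91 and 4.95 CPM in empty-vector cells (-0.67 ± 0.16, adjusted p = 0.0044 by edgeR, 0.062 by DESeq2). Rps4l, an S4-like gene, had 34.4 and 38.6 CPM against 46.8 and 51.9 CPM (-0.43 ± 0.09, adjusted p = 0.0014 by edgeR). Neither gene's groups overlapped. Over all members, 67 had both c-Fos libraries with DMSO above both empty-vector libraries, where 37.1% of tested genes did. The count of 48 rested on single libraries: it was 26 without DMSO replicate 2 and 29 without empty-vector replicate 1, while the median stayed between 0.29 and 0.38 when any library was left out. Among the 46 members under 50% shared words, 26 rose and 0 fell, with a median of 0.31.

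**Figure D2:**
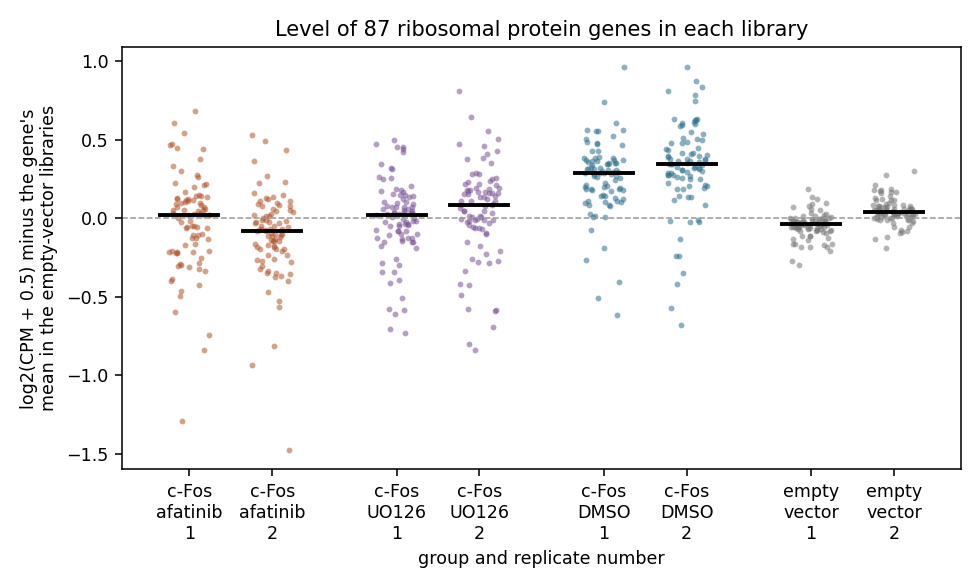
Level of each of the 87 genes in every library (y axis, log2 of CPM + 0.5 minus the gene's mean in the empty-vector libraries) by group and replicate number (x axis). Points are genes and bars are medians: 0.02 and -0.08 with afatinib, 0.02 and 0.08 with UO126, 0.29 and 0.34 with DMSO, and -0.04 and 0.04 in empty-vector cells.

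With afatinib for 6 h, the family was lower in c-Fos cells. Compared with DMSO, 57 of 87 members fell and 0 rose, where 21.5% of tested genes fell and 21.2% rose, and 85 members were below 0. The median was -0.36 on the log2 scale, a ratio of 0.779, against 0.00 over all tested genes. The fall took in 29 of 46 large-subunit genes, 20 of 31 small-subunit genes and 8 of 10 copies and relatives. At least 1.5-fold falls were called in 9 of 87 members, where 6.47% of all tested genes had one. Of these 9, 8 were among the 38 members at 50% or more shared words, and 8 were among the 37 members under 20 CPM. No member rose at an unadjusted p under 0.05 by edgeR or at an adjusted one by DESeq2, which called 47 lower.

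Rpl3, which lies at the peptidyl transferase centre, stood out. It had 5.87 and 5.09 CPM with afatinib against 14.3 and 14.8 CPM with DMSO, a log2 difference of -1.41 ± 0.13 (adjusted p = 1.65e-06 by edgeR), called in all 18 other fits. Empty-vector cells had 14.7 and 15.4 CPM, and c-Fos cells with DMSO differed from them by -0.05 ± 0.11, which was not called. Rps12 of the small subunit had 3.24 and 2.77 CPM with afatinib against 5.69 and 4.94 CPM with DMSO (-0.83 ± 0.19, adjusted p = 0.0027 by edgeR). Rpl23a, at the exit of the peptide tunnel, had 2.56 and 2.20 CPM against 4.05 and 4.15 CPM (-0.79 ± 0.19, adjusted p = 0.0051 by edgeR). Rpl10a, of the L1 stalk, had 21.6 and 20.6 CPM against 37.4 and 32.2 CPM (-0.72 ± 0.11, adjusted p = 0.00012 by edgeR). Rpl11 fell by 0.70 ± 0.22 on the log2 scale and Rps6 fell by 0.68 ± 0.16. The Rpl11 call was lost in 4 of 17 other fits, by DESeq2 and without afatinib replicate 1, DMSO replicate 1 or DMSO replicate 2 (adjusted p up to 0.16). Rps6 lost its call in 1 of 18, without DMSO replicate 2 (0.051), and Rpl23a in 1 of 17, without afatinib replicate 2 (0.059). In all 6 genes both afatinib libraries lay below both DMSO libraries. Rpl3 shares 85.6% of its 50-base words with other annotated sequence, Rps12 83.6%, Rpl23a 85.7% and Rps6 84.6%.

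Most of the abundant members fell by about the family's median. Rpl8 had 667 and 621 CPM with afatinib against 807 and 846 CPM with DMSO (-0.36 ± 0.06), Rpl41 had 676 and 612 CPM against 815 and 851 CPM (-0.37 ± 0.07), and Rps9 had 319 and 292 CPM against 391 and 436 CPM (-0.44 ± 0.07), each called by edgeR and with the groups apart. Rplp1 fell by 0.39 ± 0.07 on the log2 scale, Rps19 fell by 0.44 ± 0.07 and Rpl13a fell by 0.37 ± 0.07, and all 3 kept their calls in 18 of 18 other fits. Rplp0 had 485 and 419 CPM against 479 and 571 CPM, so that its groups overlapped (-0.22 ± 0.09, adjusted p = 0.080 by edgeR). Only Rpl24 and Rps29 were above 0, and neither was called. Rpl24, of the large subunit, had 3.46 and 3.05 CPM with afatinib against 2.34 and 3.27 CPM with DMSO (0.20 ± 0.23). Over all members, 75 had both afatinib libraries below both DMSO libraries, where 36.8% of tested genes did. The number lower was 31 without DMSO replicate 2 and 33 without afatinib replicate 2, and the median stayed between -0.39 and -0.29. Among the 46 members under 50% shared words, 30 fell and 0 rose, with a median of -0.35.

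**Figure D3:**
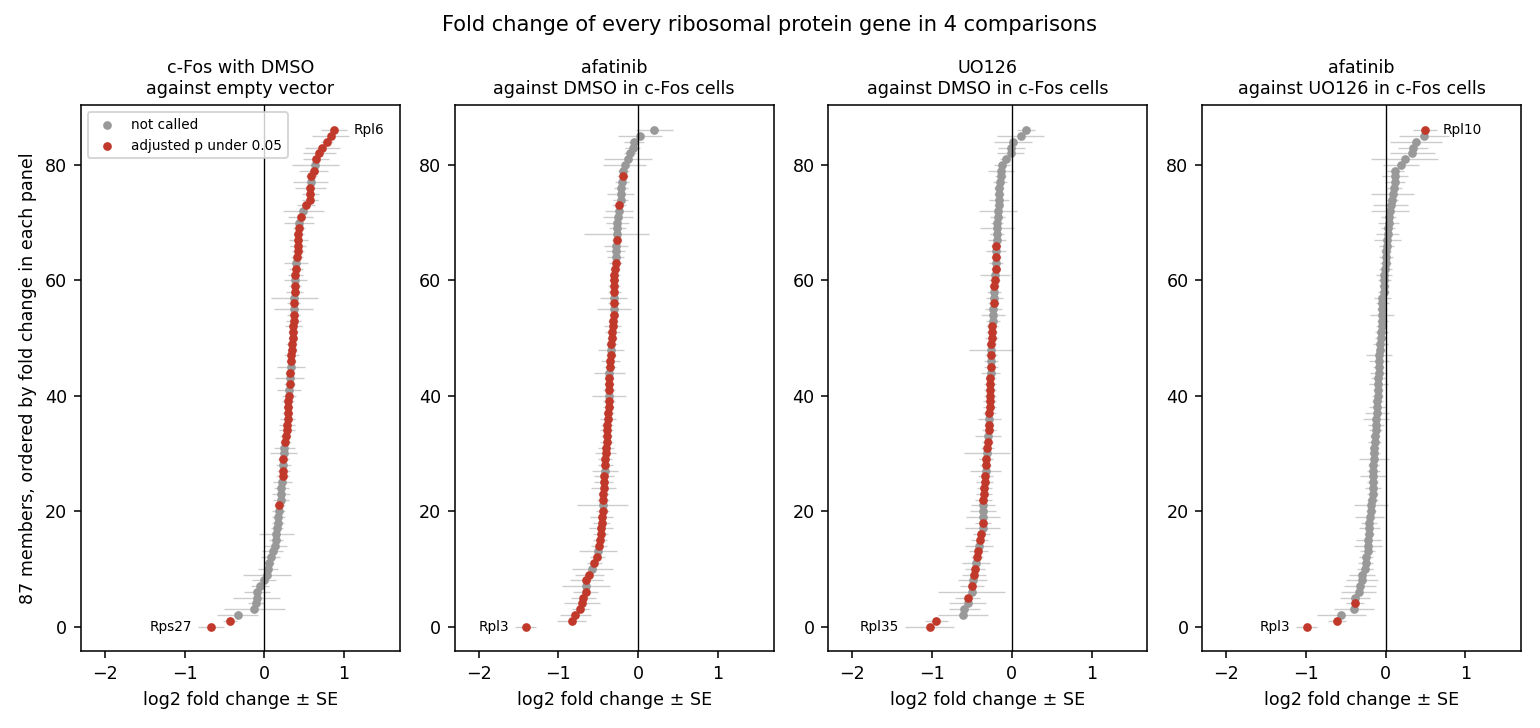
Log2 fold change (x axis, point) with its standard error (line) for every one of the 87 genes, ordered by fold change within each panel (y axis, rank), in 4 comparisons; red points passed an adjusted p of 0.05 by edgeR. The first panel lies mostly right of 0, with 48 genes higher, the next ones, for afatinib and UO126 against DMSO, mostly left of 0, with 57 and 41 genes lower, and the fourth straddles 0; the gene named at the edge is the extreme member of each panel.

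With UO126 for 6 h the members were also lower than with DMSO. In this comparison 41 of 87 fell and 0 rose, where 14.7% of tested genes fell and 13.9% rose, and 84 were below 0. The median was -0.27 on the log2 scale, a ratio of 0.829, against 0.00 over all tested genes. It took in 23 of 46 large-subunit genes, 14 of 31 small-subunit genes and 4 of 10 copies and relatives. No member rose at an unadjusted p under 0.05 by edgeR or by DESeq2, which called 30 lower.

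Rpl10, the protein that joins the large subunit last, had 3.77 and 3.57 CPM with UO126 against 6.67 and 7.56 CPM with DMSO (-0.95 ± 0.15, adjusted p = 0.00037 by edgeR). The groups did not overlap, and the call held in all 18 other fits. Rpl35, at the tunnel exit, had 4.60 and 2.84 CPM with UO126 against 5.31 and 10.0 CPM with DMSO (-1.03 ± 0.31, adjusted p = 0.039 by edgeR). Its value rested on DMSO replicate 2, which stood well above every other library, and the call was lost in 9 of 18 other fits (adjusted p up to 0.21). Rpl27 had 3.24 and 3.69 CPM with UO126 against 5.12 and 5.03 CPM with DMSO (-0.55 ± 0.16, adjusted p = 0.018 by edgeR). Rps23, a protein of the decoding centre, differed by -0.50 ± 0.16, Rps6 by -0.47 ± 0.15 and Rps27a by -0.46 ± 0.13, all called by edgeR with the groups apart, and each was lost in 3 to 9 of 18 other fits. Rpl3 had 9.94 and 11.8 CPM with UO126 against 14.3 and 14.8 CPM with DMSO (-0.42 ± 0.12, adjusted p = 0.015 by edgeR). The calls of Rpl27 and Rpl3 were each lost in 4 of 18 other fits, DESeq2 and those without UO126 replicate 1, DMSO replicate 1 or DMSO replicate 2 (adjusted p up to 0.12 and 0.11). Rps3a1 went the other way, with 39.9 and 37.9 CPM with UO126 against 31.8 and 37.0 CPM with DMSO, but was not called (0.18 ± 0.11, adjusted p = 0.26 by edgeR).

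Among the abundant members, Rpl8 had 679 and 703 CPM with UO126 against 807 and 846 CPM with DMSO (-0.26 ± 0.06), and Rplp1 had 214 and 224 CPM against 258 and 282 CPM (-0.30 ± 0.07). Both fell, by edgeR, and Rpl4, at 694 and 695 CPM against 747 and 812 CPM, came just short (-0.17 ± 0.06, adjusted p = 0.053 by edgeR). Over all members, 65 had both UO126 libraries below both DMSO libraries, where 31.0% of tested genes did. Single libraries decided the count: 4 members were lower without DMSO replicate 2 and 25 without UO126 replicate 1, although the median stayed between -0.30 and -0.21. The c-Fos with DMSO libraries serve in the comparisons with the empty vector, with afatinib and with UO126. Among the 46 members under 50% shared words, 21 fell and 0 rose, with a median of -0.27.

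Afatinib and UO126, compared with each other, differed at few members. Of the 87, 1 was higher with afatinib and 3 were lower, where 7.14% of tested genes were called in each direction, and the median was -0.09, with 63 members below 0. Rpl3 had 5.87 and 5.09 CPM with afatinib against 9.94 and 11.8 CPM with UO126 (-0.99 ± 0.13, adjusted p = 0.00029 by edgeR, called in all 18 other fits). Rps3a1 had 24.9 and 26.2 CPM with afatinib against 39.9 and 37.9 CPM with UO126 (-0.61 ± 0.11, adjusted p = 0.0045 by edgeR, lost in 1 of 18). Rpl10a had 21.6 and 20.6 CPM with afatinib against 24.8 and 30.3 CPM with UO126 (-0.38 ± 0.11, adjusted p = 0.030 by edgeR, lost in 6 of 18 with adjusted p up to 0.20). Rpl10 was the member higher with afatinib, at 4.92 and 5.43 CPM against 3.77 and 3.57 CPM (0.49 ± 0.15, adjusted p = 0.044 by edgeR, lost in 12 of 18 with adjusted p up to 0.22). In all 4 genes the groups were apart. Rps3a1 shares 71.0% of its 50-base words with other sequence, Rpl10a 77.7% and Rpl10 85.4%. Both afatinib libraries lay below both UO126 libraries in 31 members and above them in 8, where 26.4% and 26.3% of tested genes did so.

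**Figure D4:**
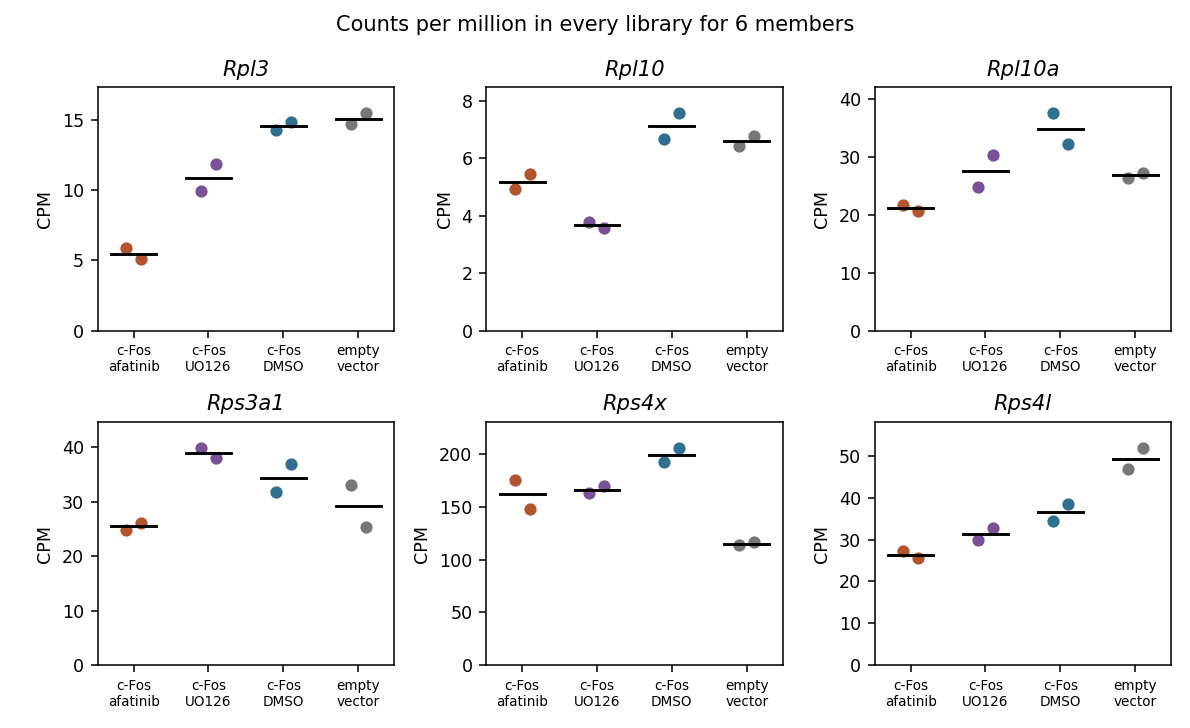
Level of 6 members in every library (y axis, CPM, from 0), by group (x axis), with points for single libraries and bars for the mean of 2. Rpl3 is lowest with afatinib, Rpl10 with UO126, Rps3a1 is lower with afatinib than with UO126, Rps4x is lowest and Rps4l highest in empty-vector cells.

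The comparisons of inhibitor-treated c-Fos cells with empty-vector cells were added after the data were seen. They share the empty-vector libraries with the first comparison. With afatinib, 4 members were higher and 13 lower than in empty-vector cells, where 21.7% and 23.4% of tested genes were, with a median of -0.02, whose sign turned in other fits. With UO126, 9 were higher and 7 lower, where 18.3% and 19.4% of tested genes were, with a median of 0.06. The members called were 4.60% and 14.9% of the 87 with afatinib and 10.3% and 8.05% with UO126. Rpl3 had 5.87 and 5.09 CPM with afatinib against 14.7 and 15.4 CPM in empty-vector cells (-1.46 ± 0.12, adjusted p = 5.88e-07 by edgeR). Rpl10 had 3.77 and 3.57 CPM with UO126 against 6.43 and 6.77 CPM in empty-vector cells (-0.84 ± 0.14, adjusted p = 0.00042 by edgeR). Rpl15 was lower with either inhibitor, at 26.6 and 27.1 CPM with afatinib, 31.7 and 26.6 CPM with UO126 and 38.1 and 42.8 CPM in empty-vector cells, and it was chosen for mention after its values were seen.

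Paralogue pairs were set side by side per length. The ratio of Rps4l to Rps4x per kb was 0.160 and 0.176 with afatinib, 0.188 and 0.198 with UO126, 0.183 and 0.192 with DMSO, and 0.420 and 0.457 in empty-vector cells. All 6 c-Fos ratios lay below both empty-vector ratios. Rps4x stayed higher with afatinib (0.49 ± 0.08) and with UO126 (0.53 ± 0.08) than in empty-vector cells. Rps4l stayed lower (-0.90 ± 0.09 and -0.65 ± 0.09). Each was called by edgeR and in all 18 other fits, DESeq2 among them. Rps4x shares 72.2% of its 50-base words with other annotated sequence and Rps27 63.1%, while Rps4l had no GENCODE transcript to compare. The part of read crediting in these ratios was not tested. The ratio of Rps27l, a p53 target, to Rps27 was 16.1 and 16.4 with afatinib, 14.4 and 14.2 with UO126, 14.5 and 15.5 with DMSO, and 8.59 and 8.41 in empty-vector cells, with Rps27 lower and Rps27l not called. Rpl37rt, a retrotransposed copy of Rpl37, had 273 and 288 CPM with DMSO against 181 and 191 CPM in empty-vector cells (0.59 ± 0.06, adjusted p = 6.6e-06 by edgeR), and 34.1 to 44.9 times the level per kb of Rpl37 over the 8 libraries. Over the 8 libraries the ratio of Rpl22l1 to Rpl22 was 0.220 to 0.291, of Rpl7l1 to Rpl7 0.331 to 0.398, of Rpl32l to Rpl32 0.257 to 0.312 and of Rpl36al to Rpl36a 8.34 to 12.5. Rpl39l, often described in testis and in tumours, rose with c-Fos (0.32 ± 0.07) and fell by 0.37 ± 0.07 with afatinib and by 0.33 ± 0.07 with UO126, while Rpl39 was not called in any of these comparisons. Rps19bp1, which shares no words, followed the family with 0.29 ± 0.09, -0.41 ± 0.09 and -0.19 ± 0.09, the last of them not called.

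Transcript length moved with the result. The members are short, with a median of 696 bases against 2859 over tested genes. The 981 other tested genes under 1000 bases had a median of 0.07 for c-Fos with DMSO against empty vector and of -0.12 with afatinib and -0.10 with UO126, each against DMSO, and the 6069 genes of 3000 bases or more had -0.06, 0.09 and 0.05. Between replicates 2 and 1 of a group, the members' median differed by -0.08 with afatinib, 0.05 with UO126, 0.09 with DMSO and 0.08 in empty-vector cells, and that of the other short genes by -0.07, 0.05, 0.06 and 0.08. The part of transcript length in the members' differences was not tested. The members' own medians in the 3 comparisons were 0.32, -0.36 and -0.27.

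Gene lists with related roles were measured beside the members. Of all tested genes, 21.5% were higher and 20.7% lower in c-Fos cells with DMSO than in empty-vector cells. With afatinib against DMSO 21.2% were higher and 21.5% lower, and with UO126 against DMSO 13.9% and 14.7%. Of 20 elongation factors and other TOP messenger RNAs, 10 were higher and 0 lower in c-Fos cells with DMSO than in empty-vector cells (median 0.24), 0 were higher and 15 lower with afatinib than with DMSO (median -0.27), and 0 were higher and 11 lower with UO126 than with DMSO (median -0.24). Pabpc1, the poly(A)-binding protein, had 1924 and 2052 CPM in c-Fos cells with DMSO against 1384 and 1450 CPM in empty-vector cells (0.49 ± 0.07). Npm1, a nucleolar chaperone, had 206 and 242 CPM with afatinib against 419 and 482 CPM with DMSO (-1.01 ± 0.18, adjusted p = 0.0045 by edgeR). Neither pair of groups overlapped. In the directions with a count of 0, no gene of this list passed an unadjusted p of 0.05 by edgeR or was called by DESeq2, and the same held for the counts of 0 in the lists below, other than the promoter-tied factors.

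Genes of RNA polymerase I and of nucleolar assembly had medians of the same sign as the members. Of all tested genes, 21.5% were higher and 20.7% lower in c-Fos cells with DMSO than in empty-vector cells. Against DMSO, 21.5% of all tested genes were lower with afatinib and 14.7% with UO126. Of 20 such genes, 16 were higher and 1 lower in c-Fos cells with DMSO than in empty-vector cells (median 0.30), 0 were higher and 18 lower with afatinib (median -0.64), and 0 were higher and 17 lower with UO126 (median -0.41) than with DMSO. Nop56, of the box C/D particles that modify ribosomal RNA, had 82.0 and 83.1 CPM with afatinib, 131 and 142 CPM with UO126, 225 and 226 CPM with DMSO, and 184 and 190 CPM in empty-vector cells. Dkc1, the pseudouridine synthase, had 47.0 and 46.2 CPM with afatinib, 70.3 and 63.7 CPM with UO126, 111 and 126 CPM with DMSO, and 77.8 and 83.5 CPM in empty-vector cells. In both genes afatinib lay below UO126, UO126 below empty vector and empty vector below DMSO, with no overlap. Myc, the transcription factor that drives many of these genes, was the 1 that was lower in c-Fos cells with DMSO, at 101 and 110 CPM against 161 and 180 CPM in empty-vector cells (-0.69 ± 0.08, adjusted p = 9.1e-06 by edgeR).

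The TOP host RNAs of small nucleolar RNAs had a median of 0.22 for c-Fos with DMSO against empty vector and were lower with both inhibitors. Of all tested genes, 21.5% were higher and 20.7% lower in c-Fos cells with DMSO than in empty-vector cells. Against DMSO, 21.5% of all tested genes were lower with afatinib and 14.7% with UO126, and 7.14% were lower with afatinib than with UO126. Of 9, 4 were higher and 0 lower in c-Fos cells with DMSO than in empty-vector cells, 9 were lower with afatinib than with DMSO (median -0.69), 7 were lower with UO126 than with DMSO (median -0.41) and 8 were lower with afatinib than with UO126 (median -0.41). Snhg5 had 26.27 and 25.97 CPM with afatinib, 51.04 and 49.95 CPM with UO126, 71.5 and 71.8 CPM with DMSO, and 51.0 and 49.7 CPM in empty-vector cells. Zfas1 had 38.7 and 35.7 CPM with afatinib, 66.1 and 72.4 CPM with UO126, 103 and 103 CPM with DMSO, and 76.7 and 75.7 CPM in empty-vector cells. The 77 tested mitochondrial ribosomal protein genes differed less. In c-Fos cells with DMSO against empty vector, 29 (37.7%) were higher and 1 (1.3%) lower (median 0.14). With afatinib against DMSO, 1 (1.3%) was higher and 44 (57.1%) lower (median -0.24). With UO126 against DMSO, 0 were higher and 13 (16.9%) lower (median -0.14). The share lower with UO126 was close to the 14.7% of all tested genes.

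**Figure D5:**
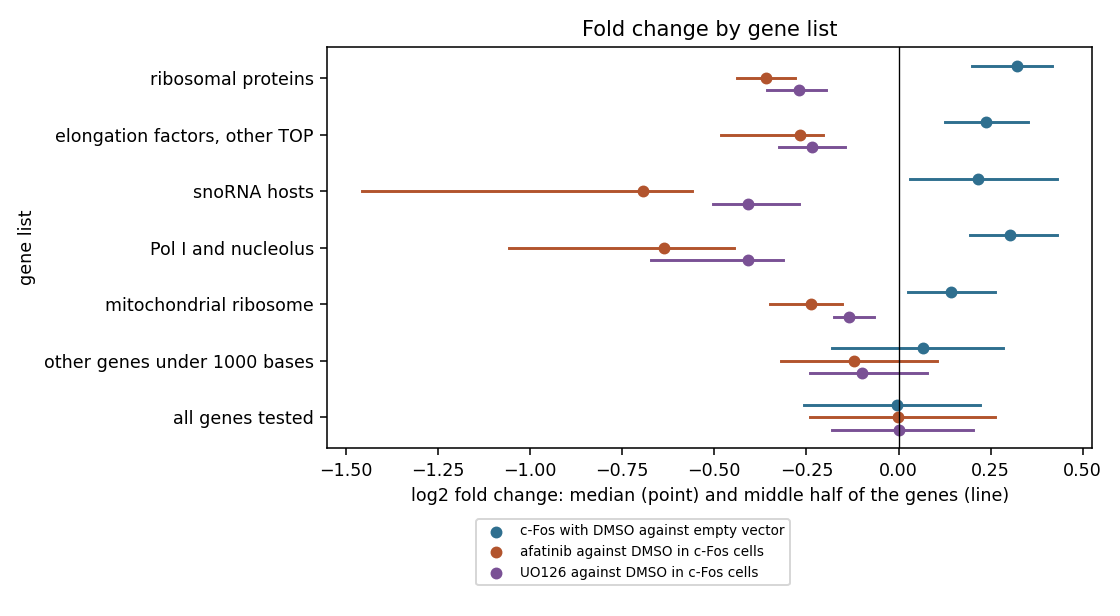
Log2 fold change (x axis) by gene list (y axis) in 3 comparisons, with the median as a point and a line spanning the quartiles. The ribosomal protein genes have medians of 0.32, -0.36 and -0.27, the snoRNA hosts and the polymerase I and nucleolar genes lie further left under the inhibitors, and all tested genes centre on 0.

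Regulators of ribosomal protein translation were counted in the same way. Of 19 genes around mTORC1 and RSK, 3 (15.8%) were higher and 8 (42.1%) lower in c-Fos cells with DMSO than in empty-vector cells, where 21.5% and 20.7% of all tested genes were. With afatinib against DMSO, 9 (47.4%) were higher and 3 (15.8%) lower, where 21.2% and 21.5% of all tested genes were. With UO126 against DMSO, 6 (31.6%) were higher and 4 (21.1%) lower, where 13.9% and 14.7% of all tested genes were. Ddit4, an inhibitor of mTORC1, had 38.1 and 39.3 CPM with afatinib, 50.9 and 52.4 CPM with UO126, 18.6 and 15.6 CPM with DMSO, and 47.4 and 46.3 CPM in empty-vector cells. Eif4ebp1, which blocks cap-dependent translation, had 230 and 186 CPM with afatinib, 134 and 144 CPM with UO126, 76.3 and 76.3 CPM with DMSO, and 86.4 and 86.1 CPM in empty-vector cells. Both were higher with either inhibitor than with DMSO by edgeR. Sesn2, another brake on mTORC1, had 29.8 and 25.6 CPM with afatinib, 16.9 and 18.5 CPM with UO126 and 8.76 and 6.08 CPM with DMSO. Deptor, also an inhibitor of mTORC1, went the other way. It had 16.1 and 15.7 CPM with DMSO against 4.31 and 3.20 CPM in empty-vector cells (2.07 ± 0.16). Against DMSO it was lower with afatinib (10.5 and 13.5 CPM, -0.41 ± 0.14) and with UO126 (10.5 and 8.90 CPM, -0.72 ± 0.14). All 3 differences of Deptor were called by edgeR. Of 12 transcription factors tied to ribosomal protein promoters, 4 (33.3%) were higher and 0 lower in c-Fos cells with DMSO. There 1 was lower at an unadjusted p under 0.05 by edgeR and 1 by DESeq2. With afatinib 3 (25%) were higher and 1 (8.33%) lower, and with UO126 1 was higher and 1 lower (8.33% each). Against the shares over all tested genes given above, the counts with afatinib and UO126 were near or below background. Elf1, an ETS factor and 1 of the 3 higher with afatinib, had 104 and 112 CPM against 71.0 and 67.9 CPM with DMSO (0.64 ± 0.07, adjusted p = 7.4e-06 by edgeR). Cnbp was the 1 lower with afatinib (-0.53 ± 0.07) and with UO126 (-0.37 ± 0.07). It was higher in c-Fos cells with DMSO than in empty-vector cells (0.26 ± 0.07), and all 3 differences were called by edgeR.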

How the data were processed

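Per the labels' protocols, total ASZ001 RNA (RNeasy) went into TruSeq RNA libraries, a kit without strand marking; overlapping antisense genes therefore cannot be told apart. The authors aligned the reads with TopHat and counted them with HOMER, per the series' design text; DESeq2 and the build mm9 are also named, without versions, in the submitters' processing notes. The deposited values were taken to be unnormalized expected counts, since every one is a multiple of 0.5 and totals differ between libraries; no source used here states this. They were rounded to whole numbers for testing. Entries whose symbols had become dates (26 of 24909) were left out. The sources used here do not say how reads matching several genes were credited.

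Genes passed edgeR's filterByExpr (minimum count 10, total 15), which left 12879, all 87 members among them. TMM factors, a quasi-likelihood fit with robust estimation (edgeR 4.0.16, R 4.3.3) over all 8 libraries with 1 term per group, and Benjamini-Hochberg adjustment over all tested genes gave the tests, with a threshold of 0.05. CPM used TMM-scaled totals, and levels per sample on a log scale used a pseudocount of 0.5. The fit was tested on simulated counts with 1 common spread for all genes and few changed genes. For c-Fos with DMSO against empty vector, 63 of 12751 genes were changed 1.2-fold, 66 were changed 1.5-fold and 65 were changed 2-fold. Of simulated 1.2-fold changes it called 12.7% for c-Fos with DMSO against empty vector. It called 16.7% for afatinib and 19.4% for UO126, each against DMSO. Of simulated 1.5-fold changes it called 80.3%, 73.1% and 67.2% in the same order. A member that was not called can therefore still differ by a small amount. In the data, 21.5% of tested genes were called higher and 20.7% lower in the first of these comparisons. With so few changed genes, the adjusted threshold was stricter in the simulation. The simulated shares therefore do not estimate how many changes were found in the data. Shared words were taken from GENCODE vM21 transcripts and promoter windows from RefSeq (GRCm38.p6), never from coordinates of the files. Alternatives were DESeq2 1.42.0 with its own test, its size factors within edgeR, library totals alone, TMM without the members, other low-count filters, the 4 libraries compared, a replicate block, no robust estimation, leaving out Rn45s and leaving out each library.

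The members and lists were chosen with earlier results of these data known. Named genes were, per comparison, the 6 largest rises and 6 largest falls called with no overlap, a set of members with known roles, paralogue pairs and up to 3 genes per list; abundant members and a few others were added after their values were seen. Over the members, replicate pairs differed by 2.97 (afatinib), 7.45 (UO126), 4.77 (DMSO) and 3.395 (empty vector) times the counting noise (chi-square per degree of freedom). Over all tested genes the values were 9.42, 26, 8.77 and 4.985 in the same order. The UO126 pair was the furthest apart in both, and counting error alone understates the spread. A few genes are not reported here by name.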

Additional observations from a re-analysis of the deposited data

How the results depend on the processing

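The directions of the members' medians in the c-Fos, afatinib and UO126 comparisons held under all alternatives run, whereas the counts of calls rested on single libraries. Leaving out each library in turn, the count of members called higher in c-Fos cells with DMSO against empty vector ranged from 26 to 60 and the median from 0.29 to 0.38. The count called lower ranged from 31 to 65 with afatinib against DMSO (median -0.39 to -0.29) and from 4 to 44 with UO126 against DMSO (median -0.30 to -0.21). For afatinib against UO126 the ranges were 0 to 1 higher and 1 to 8 lower. For c-Fos cells with afatinib against empty vector they were 2 to 8 higher and 4 to 12 lower, with a median of -0.06 to 0.05 that changed sign (0.0022 with DESeq2 size factors), and with UO126 against empty vector 5 to 15 higher, with a median of 0.036 to 0.12. Where a group kept 1 library, that library was assumed to vary like the other groups. At an adjusted p under 0.01 by edgeR, 30 members were higher in c-Fos cells with DMSO, 7 were lower with UO126 than with DMSO, 0 were higher with afatinib than with UO126, 2 were higher and 5 lower with afatinib than in empty-vector cells, and 3 were higher with UO126 than in empty-vector cells. By DESeq2, 1 member was lower in c-Fos cells with DMSO, 0 were higher with afatinib than with UO126, and 7 and 4 were lower with afatinib and with UO126 than in empty-vector cells. With a filter of 5 CPM, 1 was lower in c-Fos cells with DMSO. With no filter, 3 were higher and 6 lower with afatinib than with UO126, and 7 were higher with afatinib than in empty-vector cells. Rpl10, higher with afatinib than with UO126, was not called with library totals alone or with only the compared libraries (0 higher in both), and with the compared libraries alone 8 members were higher with afatinib than in empty-vector cells. The replicate number did not pair the libraries: deviations of same-numbered libraries correlated at -0.21 to 0.12. With the replicate block, 49 members were higher and 2 lower in c-Fos cells with DMSO, 54 were lower with afatinib, 38 were lower with UO126, and 0 were higher and 2 lower with afatinib against UO126. The share of counts in the family was 0.840%, 0.903%, 1.03% and 0.859% with afatinib, UO126, DMSO and empty vector when -ps entries were added. Without the paralogue-like members it was 0.745% with afatinib and 0.799% with UO126, and without Rn45s it was 0.859% with UO126. Fits without Rn45s, the limit of 50% shared words and the comparisons of inhibitor-treated with empty-vector cells were chosen after seeing the data, and the cause of these shifts was not tested.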

Other observations

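The 7 entries marked as pseudogenes were outside the rule, and 2 of them had mean counts above 80 of the 87 members. Rpl14-ps1 had 5563 and 5797 counts with afatinib, 7095 and 6454 with UO126, 6308 and 6606 with DMSO, and 5947.5 and 5725 in empty-vector cells. After scaling, its log2 differences were 0.42 for c-Fos with DMSO against empty vector, -0.42 for afatinib and -0.23 for UO126 against DMSO, all called by edgeR, beside 0.39, -0.39 and -0.25 for Rpl14. Rplp2-ps1 gave 0.37, -0.40 and -0.28, also called, beside 0.43, -0.35 and -0.27 for Rplp2.

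Abundant and scarce members had medians of like size. The 50 members at 20 CPM or more, averaged over 8 libraries, had medians of 0.31, -0.35 and -0.25 in the same order of comparisons, and by edgeR 34 were higher and 1 lower, 39 lower, and 30 lower. The 37 members under 20 CPM had medians of 0.36, -0.40 and -0.35, and 14 were higher and 1 lower, 18 lower, and 11 lower.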
